A study of Mus musculus with 14 samples.

Results

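The regions described here are Fli1 peaks without Erg: peaks of the ETS transcription factor Fli1, on the 19 autosomes and chromosome X, that share no base with any peak of its close relative Erg. They number 13412 of 22034 Fli1 peaks, or 60.9% (exact 95% binomial interval 60.2 to 61.5), out of 279955 peaks in the 13 lists of the series. They were set against the other 8622 Fli1 peaks, which overlap an Erg peak. The Fli1 and Erg lists alone chose the regions, so nothing about Erg at them is a finding.

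The maps come from ChIP-seq in Hoxb8-FL cells, an untreated mouse line of multipotent haematopoietic progenitors, labelled as resembling lymphoid-primed multipotent progenitors (LMPP-like) and grown with estradiol and FLT3, in which a conditional Hoxb8 protein holds the cells as progenitors. All groups share this line and its growth conditions, per the labels. Each factor had 1 library: Fli1 was precipitated with an Abcam antibody and Erg with a Santa Cruz antibody, beside Spi1, Runx1, Lmo2, Tal1, Lyl1, Cebpa, Cebpb, Meis1, Gfi1, Gfi1b, Gata2 and a rabbit IgG library whose peaks were not analysed here. With 1 library per factor no comparison has a replicate check and none was tested, and the intervals given cover counting error only. The lists hold positions without read counts, so depth is unknown, and a place where Erg did not bind cannot be told apart from one where Erg binding fell below the calling threshold.

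ETS factors bind DNA through a winged helix-turn-helix domain that reads the core GGAA, and the bases around this core separate the subfamilies. Fli1 and Erg have nearly the same DNA-binding domain, and both are known as regulators of blood stem cells, megakaryocytes and endothelium. Spi1 (PU.1), a distant relative in the ETS family that myeloid and lymphoid cells need, prefers purines before the core.

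The following stretches are shown because they are the DNA under 6 Fli1 peaks without Erg that lie almost on the start site of a listed gene, at most 8 bp from midpoint to start, in promoters that differ in how many other factors were present. They are RefSeq sequence of GRCm38.p6 (mm10), read 5′ to 3′ on the strand of the gene, and capitals mark the ETS core GGAA or its reverse complement TTCC. Mrpl3, a protein of the large mitochondrial ribosomal subunit, is at chr9:105053197-105053297 on the plus strand. Gfi1b, a zinc finger repressor of the erythroid and megakaryocyte lineages, is at chr2:28621953-28622050 on the minus strand. Psmd6, a subunit of the regulatory particle of the proteasome, is at chr14:14120916-14121009 on the minus strand. Xrcc6, a subunit of the Ku complex that binds broken DNA ends, is at chr15:82016292-82016398 on the plus strand. Irf9, the DNA-binding partner of the Stat proteins in the interferon response, is at chr14:55603907-55604014 on the plus strand. Sdhb, the iron-sulfur subunit of succinate dehydrogenase, is at chr4:140961209-140961300 on the plus strand.
Mrpl3: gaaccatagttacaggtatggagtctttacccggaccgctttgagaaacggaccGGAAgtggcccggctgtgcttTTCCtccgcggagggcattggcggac
Gfi1b: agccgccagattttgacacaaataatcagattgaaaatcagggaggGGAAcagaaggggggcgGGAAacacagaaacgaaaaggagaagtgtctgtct
Psmd6: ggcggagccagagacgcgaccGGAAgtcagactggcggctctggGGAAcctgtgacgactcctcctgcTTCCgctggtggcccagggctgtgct
Xrcc6: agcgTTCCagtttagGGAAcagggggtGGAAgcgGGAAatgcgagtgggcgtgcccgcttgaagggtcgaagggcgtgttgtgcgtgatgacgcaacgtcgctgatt
Irf9: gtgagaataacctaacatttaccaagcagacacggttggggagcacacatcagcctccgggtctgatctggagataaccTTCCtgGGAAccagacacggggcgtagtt
Sdhb: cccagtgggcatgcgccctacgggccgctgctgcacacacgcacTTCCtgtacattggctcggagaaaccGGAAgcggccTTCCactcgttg

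The Fli1 peak at Mrpl3 had no peak of any of the other 11 factors, and that at Gfi1b had 10 of them, all but Gata2. Psmd6 had Lmo2 and Spi1, Irf9 had Cebpb and Spi1, Sdhb had Gfi1, Gfi1b, Runx1 and Spi1, and Xrcc6 had Cebpa, Cebpb, Lmo2, Runx1 and Spi1. The printed stretches hold 2 to 4 cores each, and in 5 of the 6 the nearest core lay at most 10 bp from the midpoint of the Fli1 peak. In Xrcc6 it lay 34 bp away. The longer ETS word CCGGAAG occurs once in Mrpl3, once in Psmd6 and once in Sdhb, and in none of the other stretches. The next 3 stretches, chosen by the same nearness to a start, lie under Fli1 peaks with Erg and are given for comparison. Ndufs4, a subunit of respiratory complex I, is at chr13:114388065-114388164 on the minus strand. Gp9, a glycoprotein of the platelet receptor for von Willebrand factor, is at chr6:87777998-87778099 on the plus strand. Ctsg, the granule protease cathepsin G, is at chr14:56102545-56102649 on the minus strand.
Ndufs4: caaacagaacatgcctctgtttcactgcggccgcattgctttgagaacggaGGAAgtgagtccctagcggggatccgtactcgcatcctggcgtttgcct
Gp9: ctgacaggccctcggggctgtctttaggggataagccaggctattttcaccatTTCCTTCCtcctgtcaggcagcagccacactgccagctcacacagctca
Ctsg: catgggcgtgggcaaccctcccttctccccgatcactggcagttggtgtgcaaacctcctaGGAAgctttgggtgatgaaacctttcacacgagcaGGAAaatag

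The Fli1 peaks of these 3 promoters had 5, 7 and 8 other factors, and their nearest core lay 7 to 17 bp from the midpoint. CCGGAAG occurs in none of these 3 stretches. Over all promoter windows searched it was the more frequent with Erg, at 51.4% against 30.4% without.

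Distance to Erg describes how the rule cut the list. Nearly all Erg peaks lay on Fli1 (8622 of 9014, leaving 392), so the Fli1 peaks without Erg are the larger remainder of the Fli1 list. Their nearest Erg midpoint lay at a median of 34.4 kb, with quartiles of 11.1 and 89.4 kb and a 95th percentile of 376 kb. An Erg midpoint lay within 10 kb of 3083 of them (23.0%) and within 100 kb of 10378 (77.4%). Just outside an overlap, the smallest distance between midpoints was 402 bp and the fifth smallest 437 bp. Among overlapping pairs the largest was 396 bp and the fifth largest 382 bp. Overlapping Fli1 and Erg midpoints were mostly much closer, at a median of 21 bp with a 95th percentile of 83 bp, and 184 Fli1 peaks without Erg had an Erg midpoint under 800 bp away.

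Other blood factors were present at Fli1 peaks without Erg, but each of the 11 was less frequent there than at Fli1 peaks with Erg. Runx1, the core-binding factor required for definitive haematopoiesis, overlapped 22.6% of the Fli1 peaks without Erg (interval 21.9 to 23.3) and 58.5% of those with Erg (57.5 to 59.6), a ratio of 0.39. For Lyl1, a basic helix-loop-helix partner of Lmo2, the shares were 20.9% without and 51.2% with Erg, and for Gfi1, a zinc finger repressor, 14.4% without and 34.2% with Erg. Spi1 differed least in ratio. It overlapped 75.3% of the Fli1 peaks without Erg (74.5 to 76.0) and 81.3% of those with Erg (80.4 to 82.1), a ratio of 0.93.

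The remaining factors lay between these. Lmo2, a bridging protein that binds DNA through partners, overlapped 56.1% of Fli1 peaks without Erg and 83.9% of those with Erg. Its partner Tal1, a basic helix-loop-helix factor, was at 32.9% without and 58.4% with Erg. The C/EBP factors, regulators of granulocytes and monocytes, were at similar shares, Cebpb at 42.8% without and 63.5% with Erg and Cebpa at 40.9% without and 59.5% with Erg. Meis1, a homeobox cofactor of Hox proteins, was at 16.5% without and 25.0% with Erg, and Gfi1b was at 12.9% without and 25.7% with Erg. Gata2, a GATA-type zinc finger protein known from stem and mast cells and with the shortest list of all (3217 peaks), was at 2.15% without and 3.86% with Erg. For all 11 factors the counting intervals of the 2 sets of peaks lay apart.

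**Figure D1:**
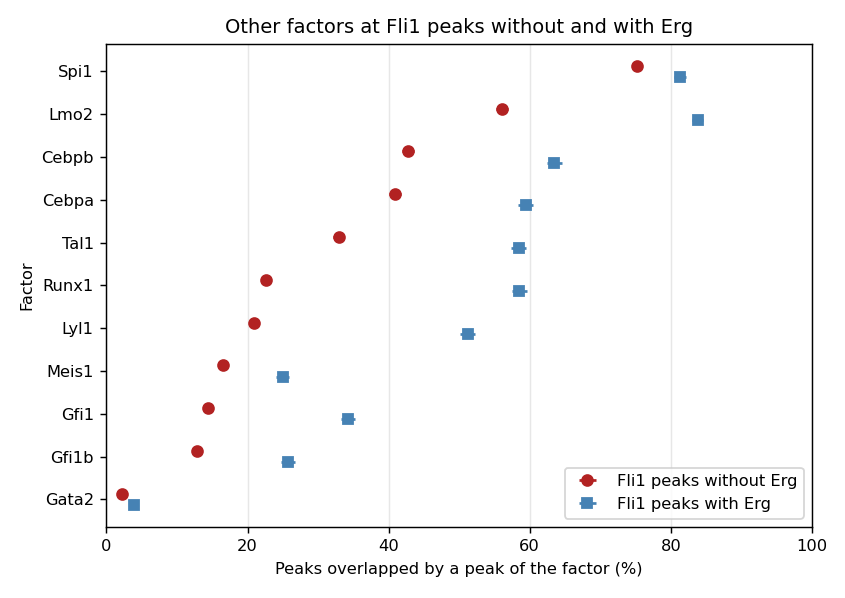
Share of Fli1 peaks (x axis, percent) overlapped by a peak of each other factor (y axis), for Fli1 peaks without Erg (red circles, n = 13412) and with Erg (blue squares, n = 8622), with exact 95% binomial intervals, many narrower than the marker. Every red circle lies left of its blue square, by the widest gap for Runx1 (22.6% against 58.5%) and by a narrow one for Spi1 (75.3% against 81.3%).

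Fli1 peaks without Erg were therefore sparser in factors. They carried a mean of 3.37 ± 2.34 of the other 11 factors (SD over 13412 peaks, median 3), against 5.45 ± 2.73 at Fli1 peaks with Erg (SD over 8622 peaks, median 6). No other factor was present at 802 of them (5.98%, 5.58 to 6.39), against 176 with Erg (2.04%, 1.75 to 2.36). Exactly 1 other factor was present at 21.1% without and 6.41% with Erg. At the dense end, 7 or more others were present at 11.7% of Fli1 peaks without Erg and 39.4% of those with Erg, and 10 or more at 115 without (0.857%) and 585 with Erg (6.78%). Read the other way, the share of Fli1 peaks that lacked Erg was 82.0% among those with no other factor, 65.5% among those with 4 and 17.0% among those with 10.

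**Figure D2:**
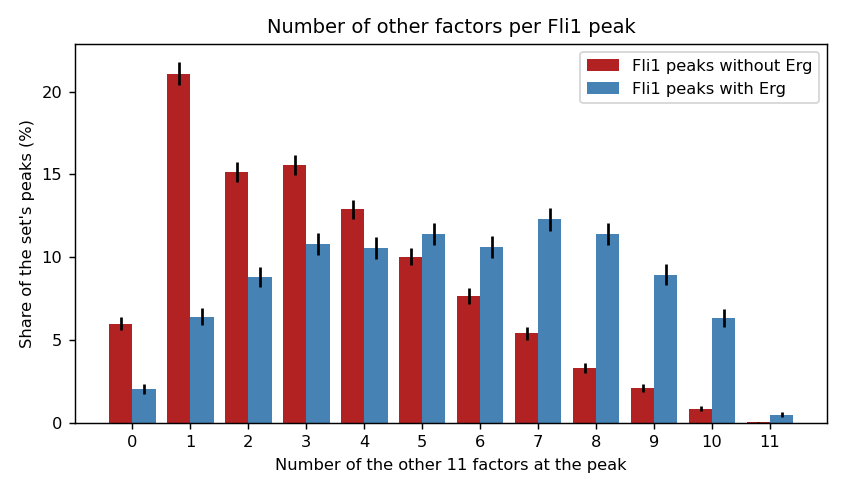
Number of the other 11 factors at a Fli1 peak (x axis) against the share of the peaks in each set (y axis, percent), for Fli1 peaks without Erg (red, left bars) and with Erg (blue, right bars), with exact 95% binomial intervals. Fli1 peaks without Erg are most often at 1 other factor (21.1%), and those with Erg spread up to 7 (12.3%) and beyond.

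The commonest company of Fli1 without Erg was Spi1 alone. This pair, with no other factor, made up 2280 peaks (17.0%) without Erg and 332 (3.85%) with Erg. The next sets among Fli1 peaks without Erg were Fli1 with no other factor (802), with Lmo2 and Spi1 (735, 5.48%, against 3.35% with Erg), with Cebpa, Cebpb and Spi1 (603, 4.50%, against 1.06%), and with Cebpa, Cebpb, Lmo2 and Spi1 (413, 3.08%, against 2.28%). These 5 sets held 36.0% of the Fli1 peaks without Erg, where the 5 commonest sets of Fli1 peaks with Erg held 21.1%. The commonest set at Fli1 peaks with Erg was all 10 factors other than Gata2, with 492 peaks (5.71%). The same set came 26th among Fli1 peaks without Erg, with 99 peaks (0.738%). In all, 667 of 2048 possible sets occurred without Erg and 577 with Erg.

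Dense regions without Erg did exist, and 3 Fli1 peaks without Erg had all 11 other factors. They were chr19:31602632-31603031 inside Prkg1, a cGMP-dependent protein kinase gene, chr12:52818217-52818616 inside Akap6, an anchoring protein of protein kinase A, and chr9:25498655-25499054 inside Eepd1. Their nearest Erg midpoints lay 232, 90.2 and 1525 kb away. A further 112 had 10 others. The most compact of these, by the summed distance of the other midpoints from that of Fli1, were chr10:17775100-17775499, which is 20.9 kb outside Txlnb with Erg 2.63 kb away, and chr1:87638192-87638591 inside Inpp5d, the phosphatase SHIP of blood cells, with Erg 2.25 kb away. At the other end, of the first 5 peaks in deposited order with neither Erg nor any other factor, 4 lay at most 0.124 kb from a listed start. These were chr8:70234285-70234684 at Sugp2, chr1:185203852-185204251 at Rab3gap2, chr8:70439497-70439896 at Crtc1 and chr7:28981849-28982248 at Map4k1. The fifth, chr4:120986469-120986868, lay inside Smap2, 35.0 kb from a start.

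The 2 sets of peaks took different places in the deposited Fli1 list, whose order has no stated meaning. The median place of a Fli1 peak without Erg was 65.7% of the way down the list, against 26.1% for those with Erg. Peaks were therefore also compared within 4 equal segments of the list, in order, where the numbers without Erg were 1357, 2780, 4274 and 5001 and the numbers with Erg 4151, 2729, 1234 and 508. This comparison was added after the data had been seen. Runx1 stayed less frequent without Erg in each segment: 27.9% against 71.4% with Erg in the first, 30.5% against 51.8%, 22.6% against 39.6% and, in the last, 16.8% against 35.6%. Lmo2 was at 66.8% without and 91.3% with Erg in the first segment and at 47.8% without and 65.2% with Erg in the last. Lyl1 was at 33.8% without and 68.9% with Erg in the first and at 14.1% without and 18.5% with Erg in the last. These were the 3 factors whose intervals lay apart, with the lower share without Erg, in every segment.

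Spi1 did not keep its direction within segments. It was at 88.4% without and 87.1% with Erg in the first, 80.3% and 79.4% in the second, 74.9% and 72.9% in the third and 69.2% and 64.0% in the last, each time with overlapping intervals. Its lower share over the whole list was thus not seen at matched places in the list. Gata2 changed direction along the list. It was more frequent without Erg in segment 1, at 8.33% against 5.69% with Erg, with intervals apart. In segment 3 it was less frequent without Erg, at 1.40% (1.07 to 1.80) against 2.67% with Erg (1.85 to 3.74), with intervals apart. Its intervals overlapped in segment 2 (2.23% without and 2.05% with Erg) and in segment 4 (1.08% and 1.57%). Meis1 was slightly higher without Erg in segments 2, 3 and 4, with overlapping intervals. Of the 11 factors, 9, 8, 9 and 9 were lower without Erg from the first to the last segment, with intervals apart for 9, 8, 6 and 4 of them.

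**Figure D3:**
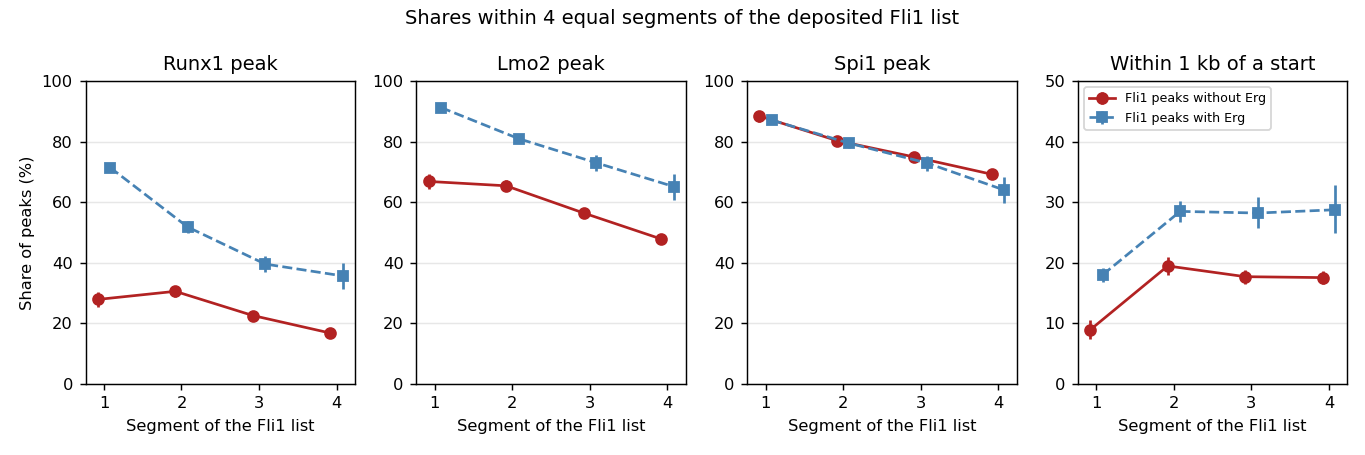
Shares of Fli1 peaks (y axes, percent) with a Runx1, Lmo2 or Spi1 peak or within 1 kb of a listed gene start, by segment of the deposited Fli1 list (x axes, 1 is the start of the file), for Fli1 peaks without Erg (red circles, solid lines) and with Erg (blue squares, dashed lines), with exact 95% binomial intervals; the last panel has its own scale. Runx1, Lmo2 and gene starts are less frequent without Erg in all 4 segments, while Spi1 runs together in both sets (88.4% and 87.1% in the first).

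Because Fli1 peaks without Erg had fewer factors in all, the shares were also compared at equal numbers of other factors, by weighting the Fli1 peaks with Erg to the numbers seen without Erg, from 0 to 10. This too was added after the data had been seen, and since the number is fixed, a lower share of some factors obliges a higher share of others. Runx1 remained lower, at 22.6% without and 38.8% with Erg, and in all 10 of the numbers where a comparison was possible. Lmo2 was at 56.1% without and 64.2% with Erg, and lower without Erg in 7 of the 10 numbers. Lyl1 was at 20.9% and 23.9%, and lower in 8 of the 10. Gata2 differed by -0.27 percentage points, but was higher without Erg in 6 of the 10. The other 7 factors were level or higher without Erg. Meis1 was at 16.4% without and 9.68% with Erg, Cebpa at 40.9% and 34.6%, and Spi1 at 75.3% and 70.7%, although Spi1 was lower without Erg in 6 of the 10 numbers, while Gfi1 differed by 0.0235 percentage points.

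Fli1 peaks without Erg lay near gene starts less often than Fli1 peaks with Erg. A midpoint within 1 kb of a listed start of a protein-coding gene was found for 2295 of them (17.1%, 16.5 to 17.8), against 2018 with Erg (23.4%, 22.5 to 24.3). The median distance to the nearest listed start was 21.9 kb without and 17.5 kb with Erg, and 18.7% without and 16.8% with Erg were more than 100 kb away. Shares inside gene bodies were close over the whole list, at 55.1% without and 56.1% with Erg, with overlapping intervals. By segment they were lower without Erg in each, with intervals apart only in the last (55.5% without, 54.1 to 56.9, and 62.8% with Erg, 58.4 to 67.0). The difference at starts was also seen within each segment: 8.92% of peaks without Erg were near a start in the first, a difference of -9.08 percentage points from those with Erg. In the last it was 17.5% against 28.7% with Erg. For orientation, 25.8% of Runx1 peaks, 12.9% of Lmo2 peaks, 8.72% of Spi1 peaks and 3.04% of Meis1 peaks lay within 1 kb of a start. The start table holds no gene of chromosome 18, where 385 of the Fli1 peaks without Erg lie, so these counted as not near a start. Peaks of that chromosome have no distance to a start and are not in the medians. They count in the total for the shares over 100 kb but cannot add to them, so those shares are lower bounds. They are also not among the peaks called farther than 1 kb from any start or gene boundary.

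Location and company were linked in both sets. Of the Fli1 peaks without Erg that had at most 1 other factor, 24.3% (22.9 to 25.7) lay near a start, against 51.9% (48.2 to 55.5) with Erg. With 7 or more other factors the shares were 3.45% without and 5.51% with Erg. Fli1 with Spi1 alone was near a start in 15.3% of cases without Erg and in 45.2% with Erg, and Fli1 with no other factor in 36.9% without and 54.0% with Erg. Sparse Fli1 peaks were thus mostly distal where Erg was missing, and about as often at a start as away from one where Erg was present. Within each location the company differed in the same direction. Near starts, Runx1 was at 31.6% without and 56.3% with Erg and Lmo2 at 37.2% without and 63.6% with Erg. Farther than 1 kb from any start or gene boundary, Runx1 was at 20.4% without and 59.8% with Erg, Lyl1 at 25.2% without and 66.1% with Erg, and Lmo2 at 61.3% without and 92.0% with Erg. All 11 factors were lower without Erg in both locations, with intervals apart for 9 near starts (not for Gata2 and Meis1) and for 11 away from them.

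Where a second factor was present, its midpoint usually lay close to that of Fli1. Spi1 was slightly closer to Fli1 without Erg, at a median of 27 bp (quartiles 11 and 57) against 32 bp with Erg (13 and 64). Gata2 was also closer, at 32 bp without and 35 bp with Erg. For the other 9 factors the median was larger without Erg: Runx1 39 bp without and 30 bp with Erg, Gfi1 50 bp and 37 bp, Cebpa 51 bp and 42 bp, Tal1 33 bp and 26 bp. Lmo2 and Lyl1, at 30 and 29 bp without Erg and 24 and 22 bp with Erg, were among the closest in both sets. All peaks have the same width, so these distances reflect midpoints only.

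Motif letters could be counted where a 300-base promoter window of the reference (250 bases before to 50 after the start) had at least 150 bases under a Fli1 peak. This held for 1551 promoters under Fli1 peaks without Erg and 1530 with Erg, and 12761 genes with no Fli1 peak within 1 kb of a start gave the level elsewhere. The ETS word CCGGAAG, read on both strands like every motif here, was in 30.4% of windows without Erg (28.1 to 32.7), 51.4% with Erg (48.8 to 53.9), 5.13% with no Fli1 peak and 12.0% of all 17274 promoters. Promoters under Fli1 without Erg therefore held this word more often than promoters in general and less often than promoters under Fli1 with Erg. Mean GC content was alike, at 60.5% in both sets of windows, and 54.4% where no Fli1 peak was present. The bare core GGAA, which CCGGAAG contains, was in nearly every window (98.1% without Erg, 99.2% with Erg, 95.7% of all promoters), with a mean of 4.07 matches without and 5.03 with Erg.

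Close to the midpoint the core separated the sets more clearly. In the 101 bases around the midpoint, where these lay in the window (949 promoters without and 981 with Erg), GGAA was in 84.6% without Erg (82.2 to 86.9), 96.0% with Erg (94.6 to 97.2) and 65.4% of stretches of the same length from promoters with no Fli1 peak. CCGGAAG was in 21.5% without, 43.6% with Erg and 1.73% of the stretches with no Fli1 peak. Within segments of the Fli1 list its share of whole windows was 22.6% without and 55.6% with Erg in the first and 29.0% without and 37.6% with Erg in the last, where intervals overlapped. Among promoters with no other factor it was 31.3% without and 55.9% with Erg.

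Of the other 12 motifs searched, 2 more had intervals apart between the sets, both more frequent without Erg. The word GCGCATGCG, bound by Nrf1, a regulator of nuclear genes for mitochondrial proteins, was in 8.58% of windows without Erg (7.23 to 10.1), 4.38% with Erg (3.41 to 5.53) and 2.37% of all promoters. It was most frequent without Erg in the first segment of the list, in 29 of 93 windows (31.2%) against 6.16% with Erg. In the third segment it was in 7.06% without and 2.59% with Erg and in the last in 5.98% and 5.38%, both times with overlapping intervals. Where no other factor was present it was in 41 of 201 windows (20.4%) without Erg and in 1 of 68 with Erg. The box CCAAT, read by Nfy, was in 37.3% without and 31.6% with Erg, with 39.3% of all promoters. The Sp/Klf word GGGCGG was in 64.5% without and 60.8% with Erg, and in 46.4% of all promoters. The Spi1 type of ETS word, GAGGAAG, which also contains GGAA, was in 16.4% without and 18.5% with Erg, and in 13.1% of all promoters.

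Words of the partner factors had overlapping intervals between the sets. The Runx word TGTGGT was in 14.6% without and 13.1% with Erg, with 15.1% of all promoters, although Runx1 peaks themselves were far fewer without Erg. Among promoters under Fli1 without Erg, it was in 18.5% of those with a Runx1 peak and 12.5% of those without one, and with Erg in 16.2% and 9.01%. For GAGGAAG the split by Spi1 was wider: without Erg it was in 24.9% of promoters with a Spi1 peak and 5.02% of those with none, and with Erg in 23.1% and 7.24%. The Gata word AGATAA was in 7.41% without and 5.03% with Erg, with 9.91% of all promoters. The E-box words were CAGCTG, in 14.2% of windows of both sets and 15.4% of all promoters, and CATCTG, in 10.3% without and 9.54% with Erg and 14.6% of all promoters. The C/EBP word TTGCNNAA was in 9.03% without and 8.56% with Erg, the AP-1 word TGANTCA in 4.51% and 3.92%, and the CRE word TGACGTCA in 4.38% and 3.99%, against 10.3%, 7.11% and 2.25% of all promoters. A match of letters is a description and not a bound site.

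**Figure D4:**
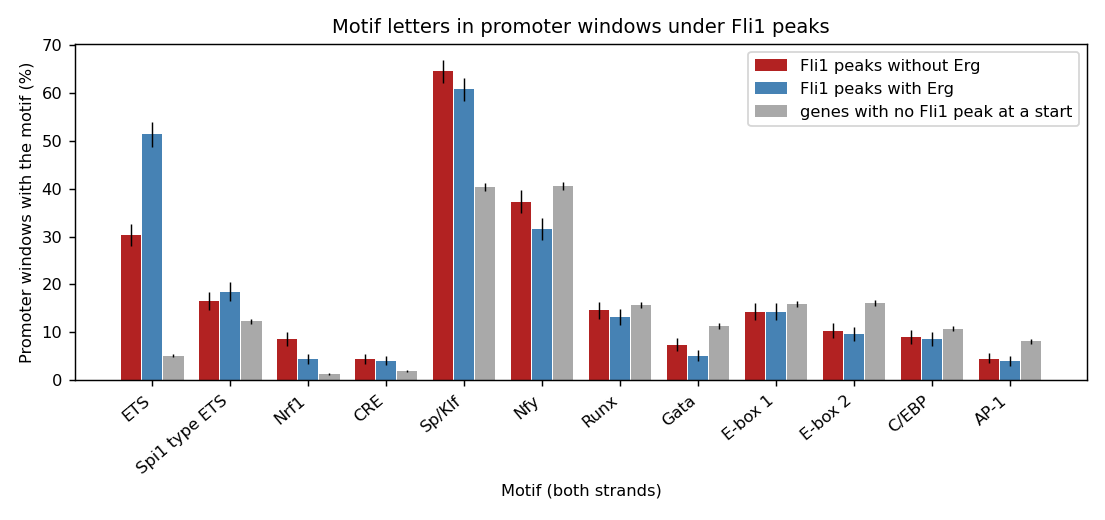
Share of promoter windows holding each motif (y axis, percent) by motif name (x axis, both strands; E-box 1 and 2 are the first and second E-box words of the text), for Fli1 peaks without Erg (red, n = 1551), with Erg (blue, n = 1530) and genes with no Fli1 peak at a start (grey, n = 12761), with exact 95% binomial intervals. The ETS word is at 30.4% without Erg against 51.4% with Erg, and the Nrf1 word is at 8.58% without and 4.38% with Erg.

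The genes nearest to the 2 sets of peaks overlapped in part. Fli1 peaks without Erg had 7247 different nearest genes and those with Erg 5449, with 3104 in both, which is 42.8% of the genes without Erg and 57.0% of the genes with Erg. The 4143 genes nearest to Fli1 peaks without Erg only took 5829 of these peaks. All are out of 21631 protein-coding genes. The set without Erg holds more peaks (13412 against 8622), for which neither these counts nor those of loci and starts were adjusted. Counting a locus as the gene body with 50 kb either side, 13040 of 21631 protein-coding genes (60.3%) held a Fli1 peak without Erg and 10938 (50.6%) one with Erg. Both kinds were in 8902 loci, only Fli1 peaks without Erg in 4138, only Fli1 peaks with Erg in 2036, and neither in 6555. Of 17274 genes with a listed start, 2429 (14.1%) had a Fli1 peak without Erg within 1 kb and 2225 (12.9%) one with Erg, and 141 had both. Since the rule keeps Fli1 peaks without Erg off every Erg peak, a start with a Fli1 peak with Erg has less room for one without, which limits the number with both. Longer genes have longer loci and hold more peaks, for which the counts were not adjusted, and neighbouring genes share peaks.

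Starts with Fli1 but no Erg were still well supplied with other factors compared with starts that had no Fli1. A Spi1 peak lay within 1 kb of 69.9% of the 2288 starts that had Fli1 peaks without Erg only, 77.7% of the 2084 that had Fli1 peaks with Erg only and 22.3% of the 12761 with no Fli1. For Runx1 these shares were 37.1%, 59.6% and 7.70%, for Lmo2 42.2%, 65.1% and 8.77%, and for Cebpb 43.8%, 51.3% and 12.8%.

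The gene lists below are read against those backgrounds of 14.1% and 12.9% at starts and 60.3% and 50.6% for loci. They are short, and the same gene can be in 2 lists. The B lineage list had Fli1 without Erg at 6 of 13 listed starts and Fli1 with Erg at 1, Il7r. The 6 were Ebf1, a factor that opens the B cell programme, the kinases Syk and Btk of B cell receptor signalling, Cd79a, a signalling chain of that receptor, the inhibitory receptor Cd22, and Igll1, a chain of the surrogate light chain. The T lineage list had Fli1 without Erg at none of 12 starts and with Erg at 1, Lat. For granulocyte and monocyte genes the counts were 2 without Erg, the NADPH oxidase subunits Cyba and Ncf1, and 6 with Erg, among them the granule proteins Mpo, Prtn3 and Ctsg and the receptor gene Csf3r, of 16 starts. The interferon and Toll list had 4 without Erg (Irf1, Irf2, Irf9 and the DNA sensor Tlr9) and 2 with Erg of 16, Irf1 being in both.

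Genes of the cell's basic machinery divided between the sets. Respiratory chain genes had Fli1 without Erg at 9 of 22 starts, such as Sdha, Sdhb, Ndufs8 and Uqcrc1, and with Erg at 7. Mitochondrial ribosomal genes had 9 without and 5 with Erg of 23, with Mrpl1 in both, and DNA replication and repair genes 8 without and 8 with Erg of 20, with Mcm7 in both. Cytosolic ribosomal genes had 4 without Erg (Rpl19, Rpl23, Rpl35 and Rps2) and 12 with Erg of 18. Proteasome genes had 4 without and 8 with Erg of 26, and RNA splicing genes 8 without and 12 with Erg of 23. Over whole families by gene symbol, cytosolic ribosomal genes (Rpl and Rps) had 19 without and 25 with Erg of 64 starts, mitochondrial ribosomal genes (Mrpl and Mrps) 21 without and 24 with Erg of 69, and Nduf genes of complex I 12 without and 10 with Erg of 42. The excess of mitochondrial ribosomal starts without Erg in the short list was therefore not seen over its family.

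Regulators of blood were in both sets. Stem and progenitor regulators had Fli1 without Erg at 4 of 16 starts, Kit, the stem cell factor receptor, Hoxa9, the Gata cofactor Zfpm1 and Cbfb, the partner of Runx1, and with Erg at 6, among them Ikzf1, Etv6 and Ldb1. ETS family genes had 2 without Erg, Etv3 and Gabpa, and 6 with Erg of 17, Gabpa being in both. Megakaryocyte and platelet genes had 1 without Erg, the chemokine Pf4, and 2 with Erg, Gp9 and Itga2b, of 10. Endothelial genes had 1 without Erg, Egfl7, and none with Erg, of 8. No neuron gene (14 starts) or liver gene (17 starts) had a Fli1 peak of either kind at its start, and olfactory receptor genes had 4 without and 1 with Erg of 944.

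**Figure D5:**
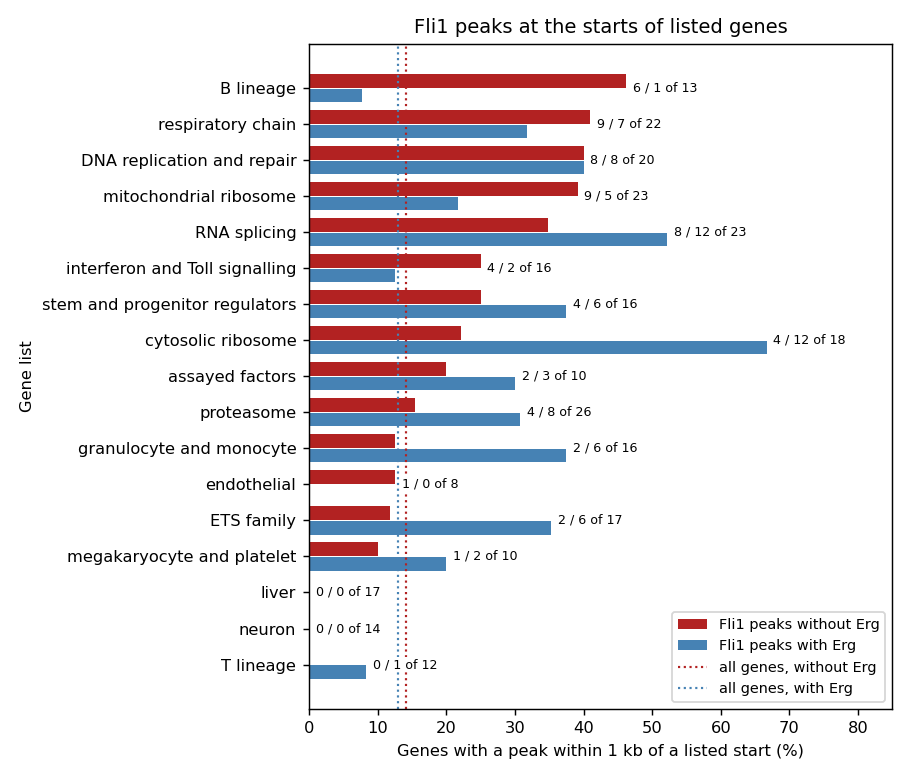
Share of genes with a listed start that have a Fli1 peak within 1 kb of it (x axis, percent), by gene list (y axis), for Fli1 peaks without Erg (red, upper bars) and with Erg (blue, lower bars), with the counts without Erg, with Erg and of listed starts beside the bars and dotted lines at the shares of all genes (14.1% and 12.9%). The B lineage list shows 6 without against 1 with Erg of 13, and the cytosolic ribosome list 4 against 12 of 18.

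The genes of the 13 factors all had Fli1 peaks of both kinds in their loci, with 64 peaks without Erg and 55 with Erg. Runx1 had 10 without and 8 with Erg, Fli1 itself 9 and 7, Erg 8 and 5, Gfi1b 6 and 2, and Cebpb 5 and 1. Lyl1 had 5 without and 7 with Erg, Spi1 2 and 6, Meis1 2 and 4, Gata2 3 and 4, and Gfi1 2 and 3. Cebpa had 4 without and 2 with Erg, and Lmo2 and Tal1 had 4 without and 3 with Erg each. Some of these peaks were dense: chr16:92597567-92597966, which is 3.70 kb outside Runx1, had 10 other factors including Gata2, and chr2:28591479-28591878, which is 17.8 kb outside Gfi1b, had 10. Peaks without Erg in the Erg locus itself had a mean of 2.75 other factors, and those in the Gfi1b locus 7.83.

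Endothelial and platelet genes are classic settings of Fli1 and Erg. Flt1, a receptor for vascular endothelial growth factor, had 8 without and 2 with Erg in its locus, the TGF-beta coreceptor Eng 7 and 3, and the adhesion molecule Pecam1 6 and 4. The endothelial list as a whole had Fli1 without Erg at 7 of 15 loci and with Erg at 10, below the 60.3% of all genes for the peaks without Erg and above the 50.6% for those with Erg, with 33 peaks without and 25 with Erg. The megakaryocyte and platelet list had Fli1 without Erg at 11 of 15 loci and with Erg at 10, with 28 peaks without and 22 with Erg. Its genes with most peaks without Erg, named for that reason as in every list, were the integrin Itgb3 (6 without and 2 with Erg), von Willebrand factor (Vwf, 4 and 1) and the platelet tubulin Tubb1 (4 and 0). Peaks of a locus can lie at other genes. All 4 peaks without Erg in the Tubb1 locus, and 3 of the 7 in the Eng locus, lay within 1 kb of a listed start of another gene. Regions with 10 other factors lay inside Itgb3 at chr11:104611579-104611978 and inside Vwf at chr6:125576731-125577130. Another such region, chr16:22436059-22436458, lay inside the ETS gene Etv5, whose locus had 3 Fli1 peaks without Erg and none with Erg.

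All 16 B lineage genes found had both kinds, with 54 peaks without Erg and 37 with Erg. Syk had 9 without and 2 with Erg, the repressor Bach2 6 and 3, and Cd79a 5 and 3. In T lineage loci, 12 of 16 had Fli1 without Erg and 11 had Fli1 with Erg, with 27 peaks without and 16 with Erg. Notch1 had 5 without and 2 with Erg, and Cd4 had 4 and 1. Of 20 granulocyte and monocyte loci 16 had Fli1 without Erg and 14 had Fli1 with Erg, with 57 peaks without and 44 with Erg. The neighbours Elane and Prtn3, neutrophil serine proteases that share peaks, had 8 and 7 without Erg and 5 each with Erg, and the oxidase subunit Ncf4 had 6 without and 1 with Erg. Tlr9 had 8 without and 2 with Erg, the interferon receptor chain Ifnar1 5 and 6, and Irf2 5 and 6. Stem cell regulators had Hoxa9 with 6 without and 2 with Erg, Zfpm1 with 6 and 8, and Etv6 with 7 and 6.

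In the machinery lists more loci held Fli1 peaks without Erg than with Erg, as over all genes (60.3% without and 50.6% with Erg). The peaks themselves were not always more numerous, although the set without Erg is the larger (13412 peaks against 8622). The proteasome list had 26 of 31 loci without and 20 with Erg, but 44 peaks without and 46 with Erg. Cytosolic ribosomal genes had 27 of 30 loci without and 24 with Erg (73 and 59 peaks), RNA splicing genes 23 of 26 and 20 (52 and 44 peaks), and DNA replication and repair genes 23 of 25 and 19 (53 and 32 peaks). Respiratory chain genes had 22 of 30 loci without and 20 with Erg (52 and 39 peaks), and mitochondrial ribosomal genes 20 of 28 and 17 (52 and 28 peaks). The loci richest in Fli1 peaks without Erg were Mrpl1 (8 without and 2 with Erg), Rplp1 (7 and 1), Sdhb (7 and 2), Rps2 (6 and 0), Mrpl4 (6 and 1), Rpl11 (6 and 2), the splicing factor Srsf3 (6 and 2) and the single-strand binding protein Rpa2 (6 and 3). Rps2 and the complex I gene Ndufb10 (5 and 0) are neighbours and share peaks. Psmb3 had 5 without and 1 with Erg, Psmd7 4 and 0, Psmb6 3 and 0, Mrpl16 4 and 1, Atp5a1 3 and 0, Sf3a3 5 and 3, Prpf8 4 and 1, Rfc2 4 and 3, and Cdc6 4 and 5. Genes of the liver and of neurons also had some: 11 of 20 liver loci held Fli1 without Erg and 2 held Fli1 with Erg, and for 20 neuron loci the counts were 9 and 6. Both lists lay below the 60.3% of all genes. Pck1 had 4 without and 0 with Erg, Apob and F9 2 and 0 each, Slc17a7 and Tubb3 4 and 1 each, and Grin1 4 and 2. Of the 4 peaks without Erg in the Grin1 locus, 3 lay within 1 kb of a listed start of another gene.

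Genome-wide, among the loci with most Fli1 peaks without Erg and no Fli1 peak with Erg was Slc7a5, a large neutral amino acid transporter, with 9. Banp, Dscam, Nup160, Plet1 and Trim2 had 8 each, and Car5a, Csnk1e and Dcst2 had 7 each. Slc7a5, Banp and Car5a are neighbours and share peaks, among them chr8:121919757-121920156 inside Car5a with 8 other factors.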

How the data were processed

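Peak lists from ChIP-seq in Hoxb8-FL cells were used, 1 deposited list from 1 library for each of 13 factors. Per the labels' protocols, cells were fixed for 10 min in formaldehyde at 0.4% or 1% and chromatin was sonicated for 7 min. Bowtie2, bedtools and MACS2 are named, with the build mm10 (GRCm38), per the submitters' processing notes. Which factor had which fixation, the versions, the threshold and whether IgG served in calling was not given in the sources used here. Each deposited list holds chromosome, start and end of peaks in base pairs, each 400 bp wide, with no score or count, so depth is unknown and nothing was normalised here. A site under the threshold of the shorter Erg list counts as without Erg.

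Lists were read on 19 autosomes and X, which left out 3 mitochondrial lines. Coordinates count from 1. Overlap meant 1 bp or more. Genes came from a RefSeq table of GRCm38.p6 (21631 protein-coding) and starts and sequences from RefSeq promoter windows of the same assembly (17274 genes, 21045 starts, none on chromosome 18). No genome was used, so peaks away from promoters have no sequence here. The table of gene bodies gives neither strand nor exons. For each share an exact 95% binomial interval (Clopper-Pearson) was computed, covering counting error alone. The overlap counting was tested on simulated data. Python 3.11.15, numpy 2.4.6, pandas 2.3.3, scipy 1.17.1 and matplotlib 3.10.9 were used.

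The regions and the 17 gene lists (364 of 366 entries found) were chosen with earlier results of these data known. Genes named were the 3 of each list with most Fli1 peaks without Erg in the locus, listed genes with a peak at the start, the 13 factor genes and the 10 genes with most such peaks and no Fli1 peak with Erg. Some genes taken by this rule are left out of the text. Regions named were the 5 with most other factors and the first 5 with none, and the densest peak of some named genes. Members of lists named at starts, and the densest peaks, were chosen after their values were seen. Alternatives changed the overlap, the meaning of without Erg, list lengths, location, windows and loci.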

Additional observations from a re-analysis of the deposited data

How the results depend on the processing

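All 11 factors remained less frequent at Fli1 peaks without Erg with 200 bp of overlap, with no Erg within 1 kb, in the first 50% of the Fli1 lines, away from starts and near starts, and all 10 without the Spi1 list. In the first 50% of the lines the differences of Gata2 (-0.014 percentage points) and Spi1 (-1.07) were close to 0, and both were higher without Erg in each of the 2 segments that make it up. With every other list shortened to 3217 lines 10 did, and Spi1 was then 0.616 percentage points higher without Erg. At equal numbers of other factors, an alternative added after seeing the data, 4 of 11 were lower, which its construction limits, since the number is fixed. The share with no other factor was above that of Fli1 peaks with Erg throughout, but its size moved: 7.92% (2.77% with Erg) with 200 bp of overlap, 2.73% (1.25%) in the first 50% of the lines, 66.3% (42.3%) with shortened lists, 4.15% (1.03%) away from starts, 12.9% (4.71%) near starts and 23.0% (5.89%) without the Spi1 list. The share near a start stayed below that with Erg: 16.0% (22.2%) in the first 50% of the lines, 14.4% (20.8%) within 500 bp, 26.9% (31.6%) within 5 kb, 20.4% (26.4%) with either gene boundary, and 8.92% and 19.5% (28.5%) in the first and the second of 4 segments of the list, also added after seeing the data. Of 17 gene lists, 14 lay above the share of all genes for loci with Fli1 peaks without Erg (13 with 10 kb and 16 with 100 kb either side), but 7 for loci that in addition had no Fli1 peak with Erg. The larger midpoint offsets for 9 of 11 factors were also 9 of 11 in the first 50% of the other lists, and the ETS word CCGGAAG was at 29.7% (51.1%) in the part of the window under the peak. The planned motif search away from starts was not run, for want of sequence. The cause of these shifts was not tested. With 1 library per factor, the antibody cannot be told apart from the factor, and list lengths affect every share.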

Other observations

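Chromosome X carried a higher share of Fli1 peaks without Erg than the autosomes. Of its 297 Fli1 peaks 219 lacked Erg (73.7%, 68.3 to 78.7), against 60.7% of Fli1 peaks on autosomes, where single autosomes ranged from 58.6% to 64.6%. By segment of the Fli1 list the share was 41.1% on X and 24.5% on autosomes in the first, 66.7% and 50.3% in the second, 81.8% and 77.5% in the third and 89.6% and 90.8% in the last. These segments held only 56, 57, 88 and 96 Fli1 peaks of X. The intervals of X and autosomes lay apart in the first and second segments and overlapped in the third and last. X held 1.63% of Fli1 peaks without Erg and 0.905% of those with Erg, against 0.895% of the Runx1 list, 2.12% of the Spi1 list and 3.36% of the Gata2 list.

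Of 1005 microRNA hairpins, 142 (14.1%, 12.0 to 16.4) had a Fli1 peak without Erg within 5 kb and 92 (9.15%, 7.44 to 11.1) one with Erg. The set without Erg is the larger, with 13412 peaks against 8622, and these counts were not adjusted for that. Of 30 hairpins listed after the files had been seen, not all of them haematopoietic, 23 were found in the reference. Mir142, abundant in blood cells, had a Fli1 peak without Erg 0.233 kb away and one with Erg at 2.14 kb, and Mir196b of the Hoxa cluster had them at 0.543 and 4.18 kb. Mir223 of myeloid cells had the closer Fli1 peak with Erg, at 3.07 kb, against 15.6 kb without Erg. The 23 hairpins went both ways. The peak with Erg was also the closer one for Mir10a, Mir125a and Mir155, and the one without Erg for Mir17 and Mir181a-1.

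Gata2 was at 113 Fli1 peaks without Erg in the first segment of the list, with a mean of 6.13 of the 11 factors (Gata2 included), and 99 of these lay farther than 1 kb from any listed start or gene boundary. With Erg it was at 236 in that segment, with a mean of 7.97, and 165 of those lay as far from any.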
